A study of Physcomitrium patens with 8 samples.

Results

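Tissue of the moss Physcomitrium patens with the PpanrKO genotype was compared in 2 states of water shortage, dried and on mannitol. These 2 libraries were chosen by their labels from the 8 of the series, and the comparison covers 19821 of the 26610 genes in the deposited table. The series holds wild-type (WT) and PpanrKO (KO) cultures of the Gransden strain, each as an untreated control and after ABA, mannitol or dehydration. All were chloronemata, the green filaments of the young moss plant, 6 days after subculture. Mannitol is a sugar alcohol that stays largely outside the cell and draws water from it by osmosis. It was given at 10% (w/v) for 1 h, and ABA (abscisic acid, the plant hormone of water stress) at 1e-05 M for 1 h, both from a soaked paper disc below the cellophane on which the tissue grew. For dehydration the tissue was lifted off the cellophane and lost water slowly in open dishes above saturated NaCl, until 70% of its fresh weight was gone. The sources used here do not give the length of the drying, so the form of water loss, its duration, its depth and the handling of the tissue cannot be told apart. Each library was made from RNA of 3 biological replicates bulked together, so a group is 1 library and a difference between 2 libraries has no replicate check and no test. The sources used here also do not say whether the PpanrKO line is 1 clone. In bulk tissue, fewer cells of a type and less RNA per cell cannot be told apart.

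In land plants ABA binds soluble receptors that then block a class of protein phosphatases, which frees SnRK2 kinases to phosphorylate their targets, among them transcription factors of the bZIP family. In mosses a Raf-like protein kinase, the product of the ANR gene after which the KO line is named, acts on this route, and the series title describes it as an ABA response regulator needed to acquire desiccation tolerance. Water loss also reaches gene expression by routes that do not need ABA, and drying and osmotic withdrawal of water are the usual ways of testing both. The deposited gene IDs are not paired with gene names, and 0 of them matched the RefSeq gene table used here. Genes are therefore given by ID and by position in build V3.0, from the gene models deposited with the values, in which a gene has a start, an end and a strand but no exons. The targeted gene, markers of the tissue and groups of genes by function were not analysed here.

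The deposited values are normalized signal, 1 value per gene and library, and each is a whole number of reads times 1 factor per library. The dehydration library of KO held 27245734 reads and the mannitol library 35622143, and the other 6 libraries held 22516957 to 38767634. Read numbers below are these recovered reads. The fold difference given for a single gene is a ratio of the normalized signal, in which 1 read counts as 0.936 after dehydration and 0.704 with mannitol in KO. Brackets after such a fold hold its exact 95% interval, which covers counting error only. Differences written as log2 are on the log2(signal + 10) scale, dehydration minus mannitol, and for low genes they come out smaller than the true change. Every count or class of genes at least 4-fold or 2-fold apart, or within 2-fold, is on this scale, where 4-fold is 2 log2 units, so a low gene can be over 4-fold apart in signal and stay out of a count. A mean signal of at least 20 over the 8 libraries was required of a gene to be kept.

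Between the KO libraries, 241 of the 19821 genes (1.22%) were at least 4-fold higher after dehydration than with mannitol, and 399 (2.01%) were at least 4-fold lower. The largest differences were 5.27 log2 units upward and -5.59 downward. The median gene stood at -0.38, with quartiles at -0.80 and 0.09, so most genes had somewhat less signal in the dehydration library as the authors scaled it. With median-of-ratios scaling the median gene was at 0.01 and the split turned to 422 genes higher (2.13%) and 193 lower (0.974%). All 241 higher genes and 193 of the 399 lower genes were past 4-fold under both scalings. Which of the directions holds more genes thus turned with the scaling, and it turned with the pseudocount too: with 50 in place of 10 there were 139 higher and 127 lower genes. Single genes shift with the scaling by at most about as much as the median gene: Phpat.006G008600, for one, stood at 5.18 as deposited and at 5.59 with median-of-ratios scaling. With the pseudocount a single gene can shift far more: Phpat.003G143600 stood at 5.27 with 10 and at 8.56 with 1.

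The shift was not the same at all levels. Ranked by mean signal, which is not corrected for gene length, and cut into 10 groups of equal size, the genes of the lowest group had a median of -0.47 and those of the highest group 0.07. Of the 241 higher genes, 90 were in the highest group and 15 in the lowest. Of the 399 lower genes, 11 were in the highest group and 83 in the lowest. The median mean signal was 1138 for the higher genes, 141 for the lower genes and 419 for all genes kept. A like slope across levels appeared in WT, where the medians of the lowest and highest groups were -0.66 and -0.14.

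**Figure D1:**
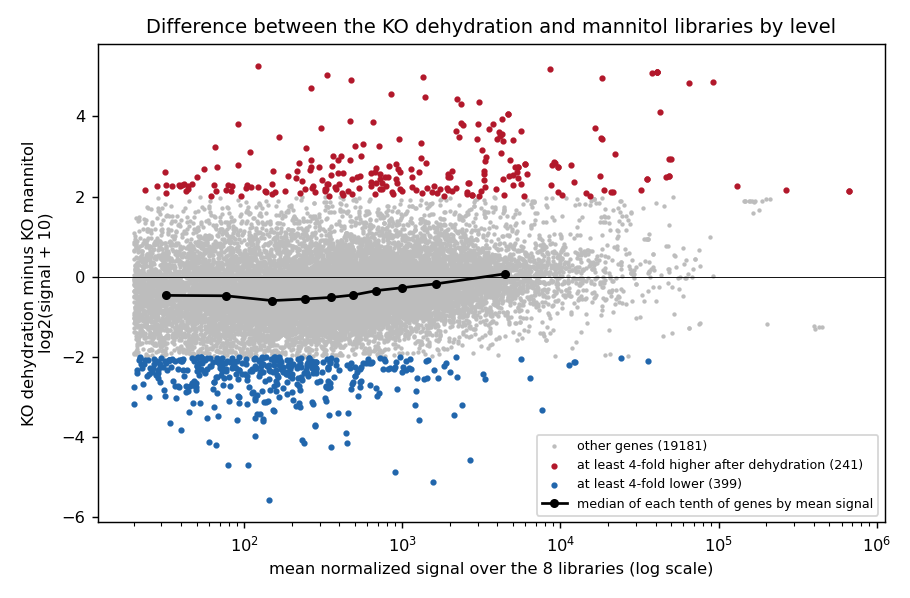
Difference between the KO dehydration and mannitol libraries (y axis, log2(signal + 10)) against the mean normalized signal over the 8 libraries (x axis, log scale), with 1 point per gene and the median of each of 10 groups of genes of equal size in black. The 241 higher genes spread over the whole range and reach the most abundant genes, while the 399 lower genes lie mostly at low signal, and the black line goes from -0.47 in the lowest group down to -0.60 in the third and then up to 0.07 in the highest.

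Genes higher after dehydration mostly had less RNA with mannitol than in the control, and few had far more in dried tissue. Read against the KO control, 185 of the 241 (76.8%) were at least 4-fold lower with mannitol, while 11 (4.56%) were at least 4-fold higher after dehydration. Over all genes kept these shares were 2.99% and 0.288%. The median of the 241 genes was -2.92 with mannitol and -0.38 after dehydration, each relative to the control. In 121 of them (50.2%) the control was within 2-fold of dehydration, in 87 (36.1%) the control lay at least 2-fold above both libraries, and in 16 (6.64%) it was within 2-fold of mannitol. In the other 15 the control fell in between, at least 2-fold from each, and in 2 it was at least 2-fold below both. Both treatments are read here against the same control library, so these classes describe where that library lies.

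**Figure D2:**
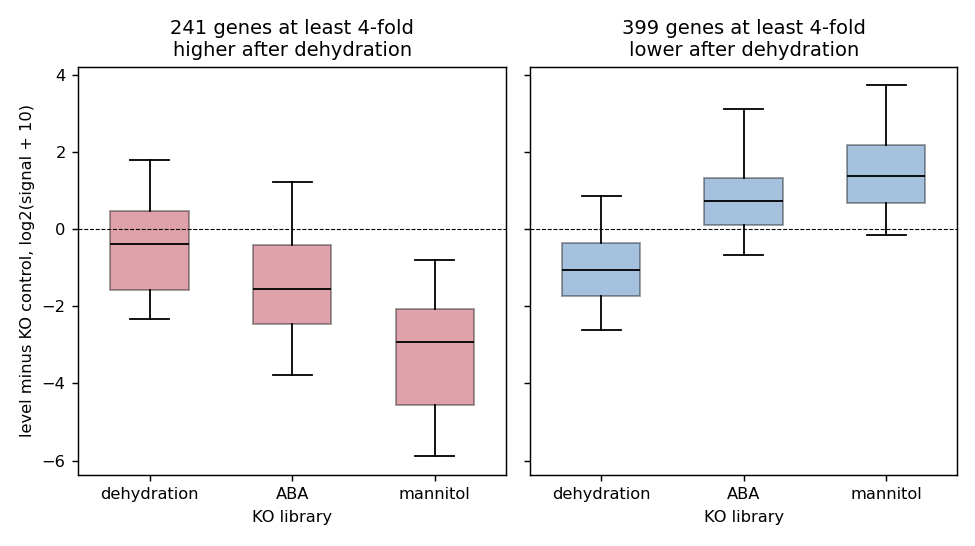
Level of the KO dehydration, ABA and mannitol libraries relative to the KO control (y axis, log2(signal + 10)) for the 241 genes higher after dehydration (left) and the 399 lower genes (right); boxes span the quartiles with the median as a line, and whiskers reach the 5th and 95th percentiles of the genes. On the left the mannitol box lies far below the control with a median of -2.92, and on the right mannitol lies above it with 1.37 and dehydration below it with -1.05.

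The highest difference belonged to Phpat.003G143600 (chromosome 3, 24441377 to 24444252, plus strand). It had 299 reads in the KO control, 1 with ABA, 401 after dehydration and 0 with mannitol. With 3 reads taken as the floor of the mannitol library, the dehydration signal was at least 178-fold higher. Dried KO tissue thus held this transcript at about the control level, while both 1 h treatments on soaked paper left almost none. In WT its reads were 259, 3, 6 and 13 in the same order. There the dried library was low as well, with a log2 difference of -0.19. Phpat.006G008600 (chromosome 6, 1335316 to 1337702, minus strand) had 12242 reads in the control, 1668 with ABA, 8791 after dehydration and 308 with mannitol, a 37.9-fold difference between dehydration and mannitol (33.8 to 42.6). In WT the same gene had 15405 reads after dehydration and 2726 with mannitol, and the log2 differences were 5.18 in KO and 3.19 in WT.

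Next in order came 5 neighbouring genes on chromosome 16 with nearly equal reads, chosen for mention after their values were seen. They are Phpat.016G058400 to Phpat.016G058800, between 9168353 and 9233649, and their reads differ by less than 10% in every library. Phpat.016G058700, for one, had 85243 reads in the control, 15034 with ABA, 55173 after dehydration and 2108 with mannitol, which is 34.8-fold (33.3 to 36.3). Phpat.016G058600 and Phpat.016G058700 lie on opposite strands over the same stretch, with 55189 and 55173 reads after dehydration. Counting that assigns the same reads to copies or to both strands would give such equal values, so the 5 genes were taken as 1 item.

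Among the 87 genes whose control lay above both libraries, Phpat.019G031700 (chromosome 19, 5521160 to 5523491, plus strand) stood furthest apart. It had 3862 reads in the control, 51 with ABA, 1046 after dehydration and 30 with mannitol, and dehydration was 46.3-fold above mannitol (32.3 to 69.0). Phpat.022G056000 (chromosome 22, 9988633 to 9991205, minus strand) followed with 813, 103, 382 and 3 in the same order, a ratio of 169 (57.5 to 824) whose width reflects the 3 reads in mannitol. For such genes both forms of water loss went with less RNA than in the control, and mannitol with less still. Phpat.006G060600 (chromosome 6, 10934034 to 10935973, minus strand), chosen after its values were seen, had the highest control signal of these genes. It had 145375 reads in the control, 874 with ABA, 1192 after dehydration and 41 with mannitol in KO. In WT it had 39259 reads after dehydration and 58426 with mannitol, a log2 difference of 0.12 as deposited and 0.84 with median-of-ratios scaling, against 4.86 as deposited in KO.

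Dried KO tissue lay above the control by any amount in 90 of the 241 higher genes (37.3%, not far from the 30.1% of all genes kept). It was at least 2-fold above the control in 33 (13.7%, against 1.97% of all genes kept). The choice of the list by a high dehydration level relative to mannitol sets part of this excess. Phpat.001G167300 (chromosome 1, 29721389 to 29722574, minus strand) had 1459 reads after dehydration, against 75 in the control, 70 with ABA and 61 with mannitol, 31.8-fold above mannitol (24.6 to 41.8). In WT it had 11 reads after dehydration and 63 with mannitol, so the high level in dried tissue was seen in the KO library and not in the WT one. Phpat.013G022800 (chromosome 13, 4626801 to 4627832, plus strand) had 25569 reads after dehydration, against 1443 in the control, 1450 with ABA and 1962 with mannitol, 17.3-fold above mannitol (16.5 to 18.1). Here WT also had more in dried tissue, with 113794 reads against 25371 with mannitol, and 91506 with ABA, a treatment that left the KO level at that of the control.

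Of the 15 genes with the control in between, Phpat.020G083200 (chromosome 20, 14899783 to 14901954, plus strand) had 329 reads in the control, 1056 after dehydration and 29 with mannitol in KO, 48.4-fold apart (33.5 to 72.6). Phpat.009G093800 (chromosome 9, 16833488 to 16836863, minus strand) followed with 1500, 5632 and 330 in the same order, 22.7-fold apart (20.3 to 25.4). In both genes drying and mannitol lay on opposite sides of the control. Of the 2 genes with the control below both, Phpat.023G075300 (chromosome 23, 13976051 to 13977042, plus strand) had 1 read in the control, 254 after dehydration and 58 with mannitol, and Phpat.020G081300 (chromosome 20, 14702143 to 14705561, minus strand) had 7, 214 and 48. The higher genes as a whole took 9.32% of the reads in the KO dehydration library and 1.77% in the mannitol library, against 10.2% in the control and 8.06% with ABA. Reads counted at several copies enter these shares more than once.

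The 399 genes lower after dehydration were of mixed origin. Relative to the KO control, 118 of them (29.6%) were at least 4-fold higher with mannitol and 75 (18.8%) were at least 4-fold lower after dehydration, against 1.47% and 1.81% of all genes kept. Here too the choice of the genes sets part of the excess. Their medians were 1.37 with mannitol and -1.05 after dehydration. The control was within 2-fold of dehydration in 173 genes (43.4%) and within 2-fold of mannitol in 144 (36.1%). It lay in between and at least 2-fold from both in 59, below both in 18 and above both in 5. With median-of-ratios scaling the control held the same place relative to both libraries in 168 of the 173, 138 of the 144 and 26 of the 59, whether or not the gene was still 4-fold lower. Together these genes took 0.197% of the reads after dehydration and 1.18% with mannitol.

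The lowest difference was that of Phpat.016G097200 (chromosome 16, 16148924 to 16152439, minus strand), with 1 read in the KO control, 505 with ABA, 2 after dehydration and 798 with mannitol. The ratio of mannitol to dehydration was 300.3, with an interval from 82.9 to 2484. In WT it had 0 reads after dehydration and 123 with mannitol. Phpat.019G023500 (chromosome 19, 3920108 to 3921012, plus strand) had 587 reads in the control, 4760 with ABA, 189 after dehydration and 9258 with mannitol, 36.9-fold higher with mannitol (31.9 to 42.8). Its WT reads were 62 after dehydration and 324 with mannitol, and 40 with ABA, so the high ABA level of KO had no counterpart in the WT library.

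The pattern of Phpat.016G097200, high with mannitol and with ABA and within 2-fold of the control after dehydration, was also that of Phpat.017G064400 (chromosome 17, 11841714 to 11843147, plus strand). It had 82 reads in the control, 3021 with ABA, 136 after dehydration and 5763 with mannitol, 31.9-fold apart (26.9 to 38.1). Phpat.021G037400 (chromosome 21, 6814434 to 6816827, plus strand), chosen after its values were seen, had 303, 7241, 179 and 6066 reads in that order, 25.5-fold apart (22.0 to 29.8). In WT it had 1274 reads after dehydration and 2419 with mannitol, and the log2 difference was -0.23 as deposited but 0.48 with median-of-ratios scaling. Of the 18 genes with the control below both, Phpat.018G062000 (chromosome 18, 13259200 to 13262275, plus strand) had 10 reads in the control, 97 after dehydration and 2734 with mannitol in KO, and 189 after dehydration and 151 with mannitol in WT. Phpat.007G079100 (chromosome 7, 14569888 to 14572763, minus strand) had 23, 75 and 1928. Both were thus above the KO control in each KO library, and far more so with mannitol.

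Another kind of lower gene was within 2-fold of the control with mannitol, on the log2(signal + 10) scale, and had little RNA in dried tissue. Phpat.001G157000 (chromosome 1, 27376859 to 27379945, plus strand) had 17 reads after dehydration, against 251 in the control, 271 with ABA and 640 with mannitol, 28.3-fold lower than with mannitol (17.6 to 49.0). Phpat.019G040000 (chromosome 19, 7477583 to 7478958, minus strand) had 12 reads after dehydration, against 110, 209 and 355, 22.3-fold lower (12.6 to 43.5). Of the genes with the control in between, Phpat.002G068500 (chromosome 2, 10943833 to 10946268, plus strand) had 131 reads in the control, 26 after dehydration and 755 with mannitol, 21.9-fold apart (14.8 to 33.7). Above both stood the control of Phpat.003G044900 (chromosome 3, 8215821 to 8219882, plus strand), with 307 reads against 22 after dehydration and 212 with mannitol, and that of Phpat.012G086400 (chromosome 12, 16153265 to 16154432, minus strand), with 2381 against 126 and 902.

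**Figure D3:**
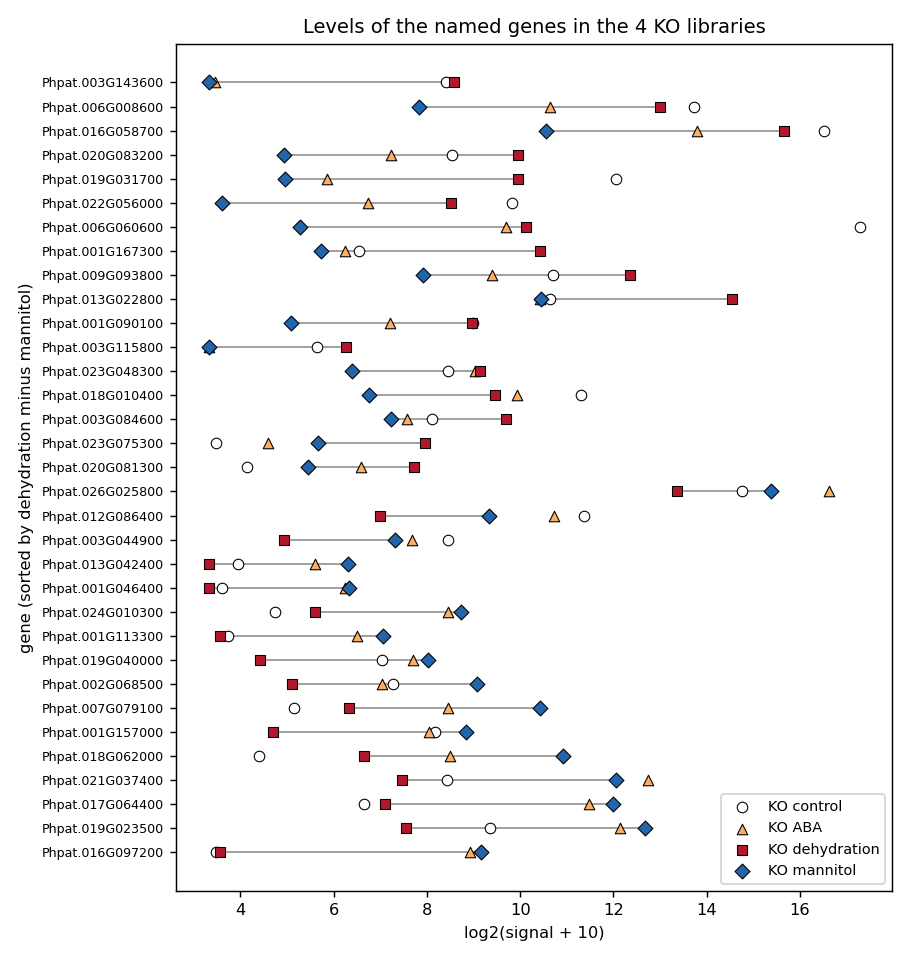
Level on the log2(signal + 10) scale (x axis) of the 33 named genes that were at least 4-fold apart (y axis, sorted by the difference), in the KO control, ABA, dehydration and mannitol libraries; the grey line joins dehydration and mannitol of a gene, and levels are to be compared within a gene because they are not corrected for length. In the upper 17 genes the control often lies near dehydration, as in Phpat.003G143600, and in most of the lower 16 the ABA symbol lies near mannitol, as in Phpat.016G097200.

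The KO ABA library takes no part in the dehydration against mannitol comparison and can be placed between its ends. Its distances are taken to the same libraries that chose the lists, so the choice can set part of the shares below. Among the 399 lower genes the KO ABA library was nearer to mannitol than to dehydration in 313 (78.5%), against 64.7% of all genes kept. Its median difference from mannitol was -0.56 and from dehydration 1.90. Among the 241 higher genes it was nearer to mannitol in 87 (36.1%), and lay in between, with medians of 1.71 above mannitol and -0.87 below dehydration. In WT the same lists gave 43.1% for the lower and 26.6% for the higher genes, against 41.3% of all genes. With median-of-ratios scaling the KO shares were 69.7% and 42.3% against 54.1% of all genes. The WT shares were then 44.6% for the lower and 21.6% for the higher genes, against 34.1% of all genes. Whether the WT lower genes stood apart from all genes thus depended on the scaling. ABA and mannitol were given for the same time in the same way, while dried tissue was handled differently and for a time that is not stated, so the agent and the handling cannot be told apart in this likeness.

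The share differed between the kinds of lower genes, and the definition of the kinds sets part of this difference. Where the control is near mannitol and apart from dehydration, a library little changed from the control falls nearer to mannitol. In the 144 genes with the control within 2-fold of mannitol, ABA was nearer to mannitol in 139 (96.5%), with a median of 0.15 relative to the control. In the 173 genes with the control within 2-fold of dehydration, it was nearer to mannitol in 110 (63.6%), a share close to that of all genes. There ABA had a median of 1.08 relative to the control, against 2.06 with mannitol. In the 87 higher genes with the control above both, ABA stood at -2.46 relative to the control, between -1.88 after dehydration and -4.70 with mannitol.

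Over all genes kept, dehydration and mannitol were the pair of treated KO libraries furthest apart. They differed by at least 4-fold in 640 genes, whereas dehydration and ABA differed in 455 and mannitol and ABA in 345. The standard deviation of the difference over genes was 0.83, 0.69 and 0.65. In WT the same pairs differed in 2457, 673 and 1646 genes, with standard deviations of 1.19, 0.73 and 1.20. Thus the closest pair was mannitol and ABA in KO, and dehydration and ABA in WT. Both orders were the same with median-of-ratios scaling, where the KO counts were 615, 326 and 305 and the WT counts 1850, 511 and 1628. With 1 library per group, the difference in order between the genotypes was not tested.

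**Figure D4:**
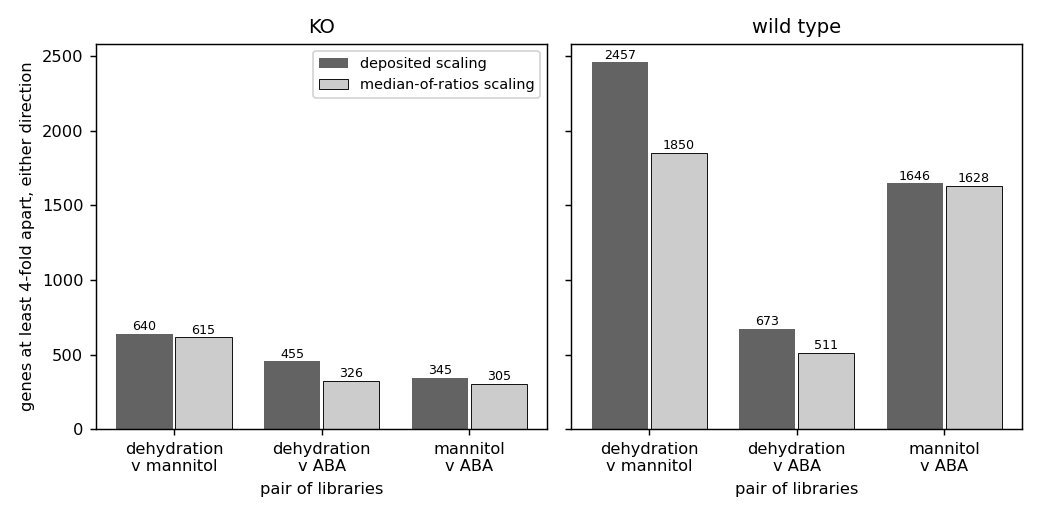
Number of genes at least 4-fold apart in either direction (y axis) for each pair of treated libraries (x axis) in KO (left) and WT (right), with the deposited scaling in dark grey and median-of-ratios scaling in light grey. In KO the count falls from 640 for dehydration against mannitol to 345 for mannitol against ABA, whereas in WT dehydration against ABA is lowest with 673.

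The WT dehydration and mannitol libraries measured the same contrast and share no library with KO. There 484 genes (2.44%) were at least 4-fold higher after dehydration and 1973 (9.95%) lower, with a median gene at -0.61. Of the 241 genes 4-fold higher in KO, 137 (56.8%) were at least 2-fold higher in WT, against 7.16% of all genes, and 92 were 4-fold higher. Their WT median was 1.35. On the lower side, 284 of the 399 KO genes (71.2%) were also at least 2-fold lower in WT, against 33.5% of all genes, and 192 were 4-fold lower. Their WT median was -1.91. The other way round, 198 of the 484 genes higher in WT (40.9%) were also at least 2-fold higher in KO, against 5.44% of all genes, and 863 of the 1973 lower ones (43.7%) were at least 2-fold lower, against 16.6%. The KO medians of these lists were 0.48 and -0.89. Across the 19821 genes, which are not independent replicates, Pearson's r between the KO and WT differences was 0.45 and Spearman's rho 0.44.

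The classes of KO genes differed in their WT values. The 144 lower genes with the control within 2-fold of mannitol had a WT median of -2.67, and 117 of them (81.3%) were at least 2-fold lower in WT. The 173 with the control within 2-fold of dehydration had a WT median of -1.51, and 112 (64.7%) were at least 2-fold lower. Among the higher genes, the 87 with the control above both had a WT median of 1.70 and the 121 with the control within 2-fold of dehydration 1.19. The largest WT differences belonged to genes that were less far apart in KO. Phpat.001G055300 (chromosome 1, 10462855 to 10464431, minus strand) had 66 reads after dehydration and 14 with mannitol in KO, against 10369 and 140 in WT, with log2 differences of 1.85 and 6.78. Phpat.002G106800 (chromosome 2, 17571160 to 17572706, minus strand) held only 1 and 0 reads in KO, against 829 and 10 in WT.

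At the other end, Phpat.026G025800 (chromosome 26, 3751006 to 3753278, minus strand) had 11236 reads after dehydration and 60673 with mannitol in KO, a log2 difference of -2.02. In WT it had 9 and 12046, a difference of -8.76. Its neighbour Phpat.026G025900 (chromosome 26, 3772319 to 3775495, minus strand) held 12632 and 66253 reads in KO and 11 and 12965 in WT. The reads of this pair ran in parallel over all libraries, so reads shared between copies cannot be told apart from separate signals. In both genotypes dehydration was the lower library, and the dried KO library held over 10000 reads of each gene. The untreated KO library was already far above the WT one. It had 24997 reads of Phpat.026G025800 against 794 in WT, and 28331 of Phpat.026G025900 against 873.

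**Figure D5:**
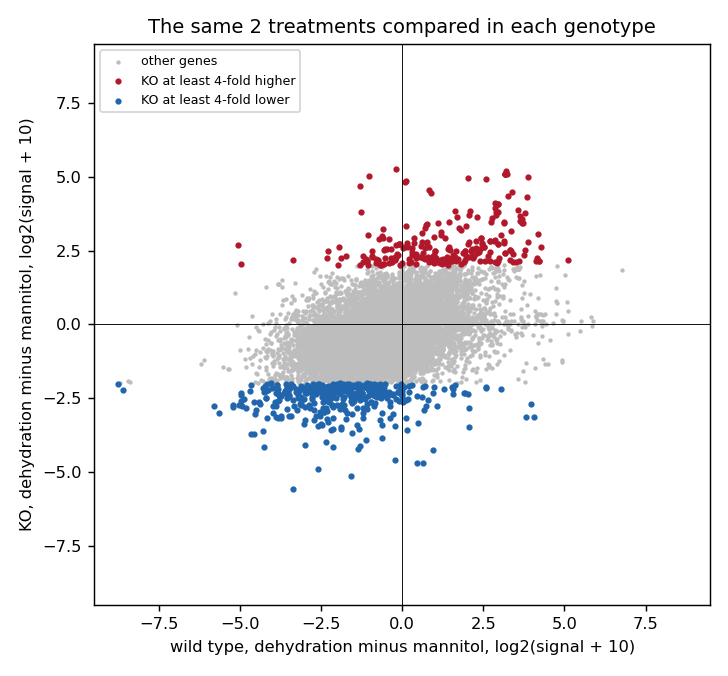
Dehydration minus mannitol in KO (y axis) against the same difference in WT (x axis), both on the log2(signal + 10) scale, with 1 point per gene. Most of the 241 genes 4-fold higher in KO lie to the right of 0, with a WT median of 1.35, and most of the 399 lower genes lie to the left, with a WT median of -1.91.

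A few genes lay at least 4-fold apart in opposite directions in the genotypes, 5 of them higher after dehydration in KO and lower in WT, and 9 the reverse. The 5 are 0.253% of the 1973 genes lower in WT, against 1.22% of all genes, and the 9 are 1.86% of the 484 genes higher in WT, a share near the 2.01% of all genes. Phpat.018G010400 (chromosome 18, 2599494 to 2603068, plus strand) had 743 reads after dehydration and 140 with mannitol in KO, against 17 and 1331 in WT. Phpat.003G084600 (chromosome 3, 14792536 to 14797057, minus strand) had 877 and 198 in KO and 15 and 168 in WT. In the reverse direction, Phpat.001G113300 (chromosome 1, 20377683 to 20378543, plus strand) showed 2 and 175 in KO and 133 and 42 in WT. Phpat.024G010300 (chromosome 24, 2798099 to 2798724, plus strand) had 41 and 591 in KO and 669 and 53 in WT. These 14 genes compare with 92 and 192 that were 4-fold apart in the same direction.

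A test was possible only for a difference that repeats in both genotypes. All 8 libraries entered a limma fit of treatment and genotype that leaves 3 degrees of freedom for the residual, and the contrast of dehydration with mannitol was tested over the 19821 genes. No gene passed a Benjamini-Hochberg adjusted p of 0.05 (0.0% in either direction), with 5809 genes at an unadjusted p under 0.05. The reads tested with edgeR's quasi-likelihood method also gave 0 calls, with 3606 unadjusted, whereas DESeq2 on the same reads called 1008 higher and 727 lower. A gene whose difference is unlike in KO and WT adds to the residual here, so such genes are hard to call.

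The genes nearest to the threshold had like differences in both genotypes, which a choice by smallest p in this fit favours. Phpat.001G090100 (chromosome 1, 17025760 to 17027322, minus strand) had 526 reads after dehydration and 34 with mannitol in KO, and 923 and 113 in WT, a shared difference of 3.73 ± 0.35 log2 units (SE, limma adjusted p = 0.085). Phpat.023G048300 (chromosome 23, 9531163 to 9533691, minus strand) had 588 and 105 in KO and 237 and 59 in WT, with 2.60 ± 0.27 (limma adjusted p = 0.085). Each was higher in 2 of 2 genotypes. The lower end was led by Phpat.001G157000, with 17 and 640 reads in KO and 11 and 580 in WT and a shared difference of -4.21 ± 0.35 (limma adjusted p = 0.085). Phpat.019G040000 followed with -3.96 ± 0.34 (limma adjusted p = 0.085), from 12 and 355 reads in KO and 3 and 341 in WT. Each was lower in 2 of 2 genotypes. Adjusted p-values of these 4 genes ran from 0.084 to 0.21 over the other limma and edgeR settings and from 9.7e-13 down to 1.1e-20 with DESeq2.

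Some genes had no read in one of the KO libraries. Of all 26610 genes, 36 had 0 reads with mannitol and at least 10 after dehydration, and 213 had 0 after dehydration and at least 10 with mannitol. Most of these were low, with medians of 14 and 17 reads in the library that had them, and the filter on mean signal kept 22 and 20 of them. Phpat.003G143600 led the first group with its 401 reads, followed by Phpat.003G115800 (chromosome 3, 20194227 to 20195536, minus strand) with 71. In the second, Phpat.001G046400 (chromosome 1, 8299255 to 8300553, minus strand) had 100 reads with mannitol and Phpat.013G042400 (chromosome 13, 9278063 to 9279238, minus strand) had 99, at least 25.1-fold and 24.8-fold above dehydration with 3 reads as the floor.

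The reads of Phpat.003G115800 belong to a wider set. Of the 36 genes with no read in KO mannitol, 9 had at least 10000 reads in WT with ABA, against 0 of the 213. The share of all genes past this bound is not given here. The 2 groups also differ in level, since the filter on mean signal kept 22 of the 36 and 20 of the 213. Phpat.003G115800 had 177526 reads in WT with ABA, 75769 after WT dehydration and 22741 with WT mannitol, and 36, 0, 71 and 0 in the KO control, ABA, dehydration and mannitol libraries. More broadly, 77 genes had at least 10000 reads with ABA in WT and at least 100 times as many as in the WT control. Their median reads in KO were 14 in the control, 4 with ABA, 18 after dehydration and 4 with mannitol, and 58 of the 77 (75.3%) had more reads after dehydration than with mannitol and 15 fewer. Of the 23712 genes with reads in at least 1 of these KO libraries, 16.4% had more after dehydration, the shallower library, and 82.8% fewer. Whether such traces come from KO tissue was not tested, and the control holds them as well as the dried sample.

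Other features of the genes played no part in choosing the lists, and the lists differed in some of them. Genes in the higher list were shorter, with a median span from start to end of 2152 bases, against 2604 in the lower list and 3089 for all genes kept. An older V1.6 gene model was recorded for 171 of the 241 higher genes (71.0%), for 310 of the 399 lower genes (77.7%) and for 77.9% of all. Genes with nearly equal reads in all 8 libraries, within 10% or 3 reads of another gene, made up 12.4% of the higher list (30 of 241), a smaller part of the lower list (6 of 399) and 3.95% of all genes. Counted once each, these leave 223 higher and 396 lower items.

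Members of a list also lay side by side on the chromosomes. Of the 241 higher genes, 56 (23.2%) had an adjacent gene of the same list that was not such a near-equal copy, whereas 1.59% of the genes outside the list had an adjacent member. For the lower list these shares were 47 of 399 (11.8%) and 2.84%. Families of related neighbours whose reads are only partly shared were not separated here. Over the 27 chromosomes, the share of higher genes ranged from 0.248% on chromosome 5 (2 of 807) to 2.72% on chromosome 21 (16 of 589), against 1.22% of all genes. That of lower genes ranged from 0.677% on chromosome 10 (5 of 739) to 4.74% on chromosome 26 (20 of 422), against 2.01%. With near-equal genes counted once, chromosome 21 held 14 higher items and chromosome 26 held 19 lower items. These extremes rest on few genes, and differences between chromosomes were not tested.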

How the data were processed

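RNA-seq libraries of the labelled groups were analysed, with 1 library of bulked RNA per group. Per the labels' protocols, polyadenylated RNA was primed at random. FastQC, Trimmomatic, TopHat2, SAMtools and bedtools were used, per the submitters' processing notes, with no versions stated. The authors deposited normalized signal per gene. The sources used here do not give how the factor of each library was set or whether counting used strand. Every deposited value was a whole multiple of 1 step per library within 0.01 read (100% of values), which gave the reads. This recovery and the fits were tested on simulated data. The data simulated for the fits had the same difference in both genotypes and the same dispersion for all genes. They therefore do not show how the fits behave where the genotypes differ.

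Groups were taken from the sample titles. Values were set on the log2(signal + 10) scale for genes with a mean signal of at least 20, which left out 6789 genes, of which 3929 had reads in at least 1 of the KO dehydration and mannitol libraries. Pairs of libraries were described by the genes at least 4-fold apart, with exact Clopper-Pearson 95% intervals of read ratios, conditional on their sum. These cover counting error only, since PCR copies of a molecule are counted as separate reads. The shared difference was tested with limma 3.58.1 (with a mean-variance trend, two-sided, Benjamini-Hochberg), with edgeR 4.0.16 and DESeq2 1.42.0 as alternatives, in R 4.3.3, and its p-values rest on how far these libraries scatter. Alternatives were other pseudocounts, filters, scalings, fits and sets of libraries. Median-of-ratios factors came from genes with reads in all 8 libraries.

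Genes named were the 2 highest and 2 lowest in each comparison and in each class described (for the shared difference, those with the smallest p), with near-equal genes as 1 item. The text marks the other genes. The comparison, lists and classes were chosen with earlier results of these data known. Several bounds were set while the values were in view: 2-fold for a control near a library, within 10% or 3 reads for near-equal genes, the nearness of ABA, the 10 groups by level, 10 reads against 0, and the 10000-read and 100-fold bounds in WT with ABA. Lists of genes by function were not applied, for want of names.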

Additional observations from a re-analysis of the deposited data

Results flagged for a closer look

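Of the genes named above, 6 lay at least 2-fold apart on the log2(signal + 10) scale in opposite directions in KO and WT, and each is given here because its 2 genotypes moved opposite ways. With 1 library per group the difference between the genotypes was not tested, and 4 of the 6 were named for being opposite. As log2 differences, dehydration minus mannitol, Phpat.018G010400 stood at 2.70 in KO and -5.05 in WT, and Phpat.003G084600 at 2.47 and -2.27. Phpat.001G113300 stood at -3.49 in KO and 2.05 in WT, and Phpat.024G010300 at -3.14 and 4.05. Phpat.020G083200 had 5.04 in KO and -1.01 in WT, and Phpat.001G167300 had 4.70 and -1.30. With median-of-ratios scaling the WT values of the last pair were -0.31 and -0.81, under 2-fold, while their KO values were 5.36 and 5.06. Phpat.018G062000, at -4.26 in KO and 0.96 in WT, was just under the bound in WT and past it with median-of-ratios scaling, at -3.86 and 1.64.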

How the results depend on the processing

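The counts of genes 4-fold apart depended on the scaling and the pseudocount. For KO, 241 higher and 399 lower became 422 and 193 with median-of-ratios scaling, 377 and 740 with a pseudocount of 1, and 139 and 127 with a pseudocount of 50. With a minimum mean signal of 100 there were 245 lower genes. Centred on the median gene, an alternative added after the data were seen, the split was 423 and 185. The KO median of -0.38 turned to 0.01 with median-of-ratios scaling. For WT, 484 higher and 1973 lower became 985 and 865 with median-of-ratios scaling and 943 and 838 when centred, and a pseudocount of 50 left 949 lower. Of the KO genes 4-fold higher, 70.1% were 2-fold higher in WT with median-of-ratios scaling (16.2% of all genes) and 68.6% when both pairs were centred (15.0%). Of those lower, the shares were 64.8% (15.9%) and 59.5% (16.3%). The share of lower genes with KO ABA nearer to mannitol, 78.5%, was 69.7% with median-of-ratios scaling. The shared difference had 0 calls in every limma and edgeR setting, and 1008 higher and 727 lower with DESeq2. The other 44 recomputed values of these results, among them the counts with no filter, stayed within 1.5 times or within their interval. All 36 named genes kept the direction of their KO difference with a pseudocount of 1 and with median-of-ratios scaling. Where the cause of a change is not given by the setting itself, the cause was not tested. No paired analysis was possible because each group has 1 library and the labels give no replicate numbers; genotype was a term of the fit, and without it limma called 0 genes. Depth limits genes with few reads, as the wide intervals above show, and pooling leaves the scatter between cultures unknown.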
